A study of Rattus norvegicus with 22 samples.

Results

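The sterol arm of cholesterol synthesis is the run of enzymes that turns farnesyl pyrophosphate into squalene, closes squalene into lanosterol and trims lanosterol to cholesterol. It was followed here through 9 enzyme genes, taken in pathway order: Fdft1, Sqle, Lss, Cyp51, Msmo1, Nsdhl, Ebp, Sc5d and Dhcr7. These genes were chosen by name, with earlier results of these data known. All 9 were in the gene table, which lists 17172 genes, and all 9 were among the 12875 genes that passed the filter on low counts. Polyadenylated RNA came from the ipsilateral (right) hippocampus of adult male Sprague-Dawley rats. Sham rats (n = 2 at day 1, n = 4 at day 14) had isoflurane anesthesia, the craniectomy and the implanted hub without the pressure pulse, and TBI rats (n = 4 at day 1, n = 4 at day 14) had the same surgery and a moderate lateral fluid percussion injury. All 4 groups thus carry the effects of surgery, and no naive rats were compared. Each library held RNA of 1 labelled sample from 1 hippocampus, a mixture of neurons, glia and vessels, so fewer cells of a type and less RNA per cell cannot be told apart.

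Cholesterol in plasma does not pass the blood-brain barrier, so the brain makes its own. In the adult brain most of this synthesis is assigned to astrocytes and oligodendrocytes, which hand cholesterol to neurons on apolipoprotein E particles or build it into myelin. The transcription factor SREBP2, made from Srebf2, switches on the enzymes of both the mevalonate arm and the sterol arm when membrane sterol is low, together with the factors NF-Y and Sp1, which bind CCAAT boxes and GC boxes.

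The 250 bases before the annotated transcription start are shown for 4 of the genes because 3 of them (Cyp51, Msmo1 and Sc5d) had their 4 lowest libraries in TBI day 14, while the fourth, Ebp, did not. Sequences are from a table of RefSeq promoters (rat build GRCr8), in which 7 of the 9 genes were matched. Promoters of Fdft1 and Sqle were not used here. Capitals mark CCAAT and GGGCGG on either strand, so that ATTGG and CCGCCC are also in capitals, and lines run 5′ to 3′ on the strand of the gene. Cyp51 is on the plus strand at chr4:30991443-30991692, Msmo1 on the plus strand at chr16:29746863-29747112, Sc5d on the minus strand at chr8:51538278-51538527 and Ebp on the plus strand at chrX:16971212-16971461.
Cyp51: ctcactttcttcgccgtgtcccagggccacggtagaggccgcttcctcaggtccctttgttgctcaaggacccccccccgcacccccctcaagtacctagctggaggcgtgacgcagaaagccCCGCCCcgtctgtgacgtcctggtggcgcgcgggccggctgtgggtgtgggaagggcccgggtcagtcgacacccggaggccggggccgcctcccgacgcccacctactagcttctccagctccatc
Msmo1: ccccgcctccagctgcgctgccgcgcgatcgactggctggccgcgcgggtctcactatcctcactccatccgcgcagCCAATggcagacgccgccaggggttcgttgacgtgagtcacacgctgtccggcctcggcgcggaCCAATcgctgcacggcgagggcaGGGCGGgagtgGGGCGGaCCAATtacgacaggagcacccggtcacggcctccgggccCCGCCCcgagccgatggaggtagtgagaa
Sc5d: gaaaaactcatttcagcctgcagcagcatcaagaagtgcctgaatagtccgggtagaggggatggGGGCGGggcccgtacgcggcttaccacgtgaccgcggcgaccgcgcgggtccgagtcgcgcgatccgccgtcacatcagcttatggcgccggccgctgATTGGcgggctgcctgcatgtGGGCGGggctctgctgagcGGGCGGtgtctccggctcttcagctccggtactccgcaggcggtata
Ebp: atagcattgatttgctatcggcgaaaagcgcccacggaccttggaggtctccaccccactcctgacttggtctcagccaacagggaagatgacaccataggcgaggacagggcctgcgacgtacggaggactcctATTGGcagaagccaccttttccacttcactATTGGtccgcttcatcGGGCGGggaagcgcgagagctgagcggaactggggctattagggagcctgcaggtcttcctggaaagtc
In these windows Msmo1 had 3 CCAAT and 3 GGGCGG matches, Sc5d had 1 and 3, Ebp had 2 and 1, and Cyp51 had 0 and 1. Over the 7 genes, 5 had a CCAAT (34% of 33469 promoters of this length did) and 6 had a GGGCGG (30.5% of all promoters). The sterol regulatory element written as TCACNCCAC was found in 0 of the 7 and in 0.974% of all promoters, which says only that these letters are not in these windows. How these matches relate to the levels of the genes was not tested.

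The 14 libraries held 15065540 to 23743703 counted reads each. Levels are given as CPM, the count of a gene as a share of its library size, after TMM scaling for differences in library composition. Expression was compared by edgeR's quasi-likelihood test over all 14 libraries, two-sided, with Benjamini-Hochberg adjustment over the tested genes, and a gene was called when its adjusted p-value was under 0.05. Because no gene lengths were used, levels are compared between groups and not between genes. Markers of neurons, astrocytes, oligodendrocytes and microglia were detected in every library. In 3 libraries the markers of choroid plexus, the tissue that makes cerebrospinal fluid, stood far above the rest. Sham day 1 replicate 1 had a mean centered log2 CPM of 5.82 over these markers, TBI day 14 replicate 3 had 5.06 and TBI day 14 replicate 2 had 2.96, against −1.84 to −0.89 in the 11 other libraries. Of the 12 markers of this list Otx2 was at 0 in all 14 libraries. Of the 11 tested, 9 were called lower in TBI at day 1 (7.93% of all tested genes were) and 1 higher at day 14 (4.07%). The 9 sterol-arm genes were refitted with the mean of these markers as a covariate and without the 3 libraries. Whether choroid plexus tissue caused any of the differences was not tested. For the 9 sterol-arm genes, calls that were lost without the 3 libraries with high markers are given with both values. That fit kept only replicate 2 of sham day 1 and replicates 1 and 4 of TBI day 14, so it rested on fewer rats. The other named genes and the lists were not refitted without these libraries.

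At 14 days after injury, several enzymes of the sterol arm were lower in TBI than in sham. Fdft1, Sqle, Cyp51 and Msmo1 were called lower, by 37.1% to 43.4%, and 0 of the 9 genes were called higher (4.07% of all tested genes were). All 9 log2 fold changes were below 0, against 55.8% of all tested genes (44.1% were above 0), and their median was −0.58, against −0.03 for all tested genes. The 4 called genes compare with 0.365% of all tested genes called lower at this day. Because the 9 genes were chosen with earlier results of these data known, the shares in this paragraph are a description and not a test. For 7 of the 9 genes every TBI library lay below every sham library, a separation that 5.86% of all tested genes showed.

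Fdft1 encodes squalene synthase, the enzyme that commits farnesyl pyrophosphate to sterols. It stood at 114, 119.9, 121 and 110.3 CPM in the 4 sham day 14 rats and at 63.2, 70.1, 81.5 and 72.1 CPM in the 4 TBI day 14 rats. The groups did not overlap, and the spread within each was small. By edgeR the log2 fold change was −0.70 with an SE of 0.11 (adjusted p = 0.00146), and the level of Fdft1 fell by 38.3%. It was called at day 14 under all 26 alternatives tried.

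Sqle encodes squalene epoxidase, which adds the oxygen needed for ring closure and is a rate-limiting step of the arm. Its level was 108, 117, 108 and 127 CPM in sham day 14 and 69.3, 74.1, 68.5 and 77.2 CPM in TBI day 14. The highest TBI rat was thus well below the lowest sham rat. The edgeR estimate was −0.67 on the log2 scale with an SE of 0.11 (adjusted p = 0.00185), and Sqle was called under all 26 alternatives.

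Cyp51 encodes lanosterol demethylase, the first enzyme to act on the closed ring system. It measured 208, 212, 231 and 254 CPM in sham day 14 and 107, 134, 121 and 151 CPM in TBI day 14. This was the largest log2 fold change of the 9 genes at this day, −0.82 (SE 0.16, adjusted p = 0.00483 by edgeR), or a level that fell by 43.4%. Cyp51 was called under 25 of 26 alternatives, the choroid plexus covariate among them. Without the 3 libraries with high choroid plexus markers the log2 fold change of Cyp51 was −0.79 and the call was lost (adjusted p = 0.0725 by edgeR).

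Msmo1 encodes methylsterol monooxygenase, which oxidizes the methyl groups of the sterol ring. Sham day 14 rats had 127, 147, 160.1 and 169.5 CPM, and TBI day 14 rats had 69.8, 103, 95.2 and 107 CPM. The groups did not overlap, and TBI replicate 1 was the lowest of the 14 libraries. In edgeR's fit Msmo1 changed by −0.68 on the log2 scale with an SE of 0.15 (adjusted p = 0.0123). Msmo1 was called under 23 of 26 alternatives, again with the choroid plexus covariate among them. Without sham day 14 replicate 4 it was −0.62 and missed the threshold (adjusted p = 0.0508 by edgeR), as it did without the 3 libraries with high choroid plexus markers, where it was −0.75 (adjusted p = 0.0662).

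Lss, Sc5d and Dhcr7 did not pass the adjusted threshold at day 14, although in each of them the TBI and sham rats did not overlap. Lss, lanosterol synthase, which closes squalene epoxide into lanosterol, had 42.0, 39.8, 37.8 and 34.3 CPM in sham and 30.1, 25.7, 26.3 and 27.3 CPM in TBI. Its log2 fold change was −0.49 (95% interval −0.82 to −0.16, adjusted p = 0.111 by edgeR). Sc5d, the lathosterol desaturase that acts next to last in the route through lathosterol, had 76.4, 89.8, 119 and 112 CPM in sham and 61.6, 58.3, 70.6 and 73.9 CPM in TBI. The log2 fold change of Sc5d was −0.58 (95% interval −0.95 to −0.22, adjusted p = 0.0768 by edgeR). Dhcr7, the reductase that makes cholesterol itself, had 54.3, 60.4, 50.0 and 63.4 CPM in sham and 37.6, 45.5, 36.4 and 47.9 CPM in TBI, with a log2 fold change of −0.45 (95% interval −0.73 to −0.16, adjusted p = 0.0817 by edgeR). With DESeq2 on the same counts these 3 genes were also called lower (adjusted p = 0.0484, 0.0277 and 0.0265 for Lss, Sc5d and Dhcr7), which made 7 of 9. Sc5d was also called without TBI day 1 replicate 1 (−0.58) or sham day 14 replicate 1 (−0.69), and Lss without TBI day 1 replicate 1 or 3 (−0.49 in both), libraries that enter Lss only through the shared estimate of spread. The fit of only the groups compared also called Lss (−0.46, adjusted p = 0.0096 by edgeR) and Sc5d (−0.55, adjusted p = 0.0326).

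Nsdhl and Ebp were the genes whose TBI and sham rats overlapped at day 14. Nsdhl, the dehydrogenase that completes removal of the methyl groups oxidized by Msmo1, had 30.8, 43.1, 44.6 and 34.5 CPM in sham and 28.5, 27.9, 30.9 and 29.99 CPM in TBI. Only TBI replicate 3 reached into the range of the sham rats, whose spread was wide (38.2 ± 6.67 CPM, SD, n = 4, against 29.3 ± 1.35 CPM, SD, n = 4, in TBI). The log2 fold change of Nsdhl was −0.38 (95% interval −0.73 to −0.041, adjusted p = 0.289 by edgeR). Ebp, the isomerase that shifts the double bond of the sterol ring, had 14.3, 16.5, 14.0 and 14.6 CPM in sham and 13.1, 17.4, 11.97 and 12.99 CPM in TBI. Its log2 fold change of −0.10 had a 95% interval from −0.46 to 0.27 (adjusted p = 0.916 by edgeR), so a fall as large as that of Fdft1 lay outside the interval.

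**Figure D1:**
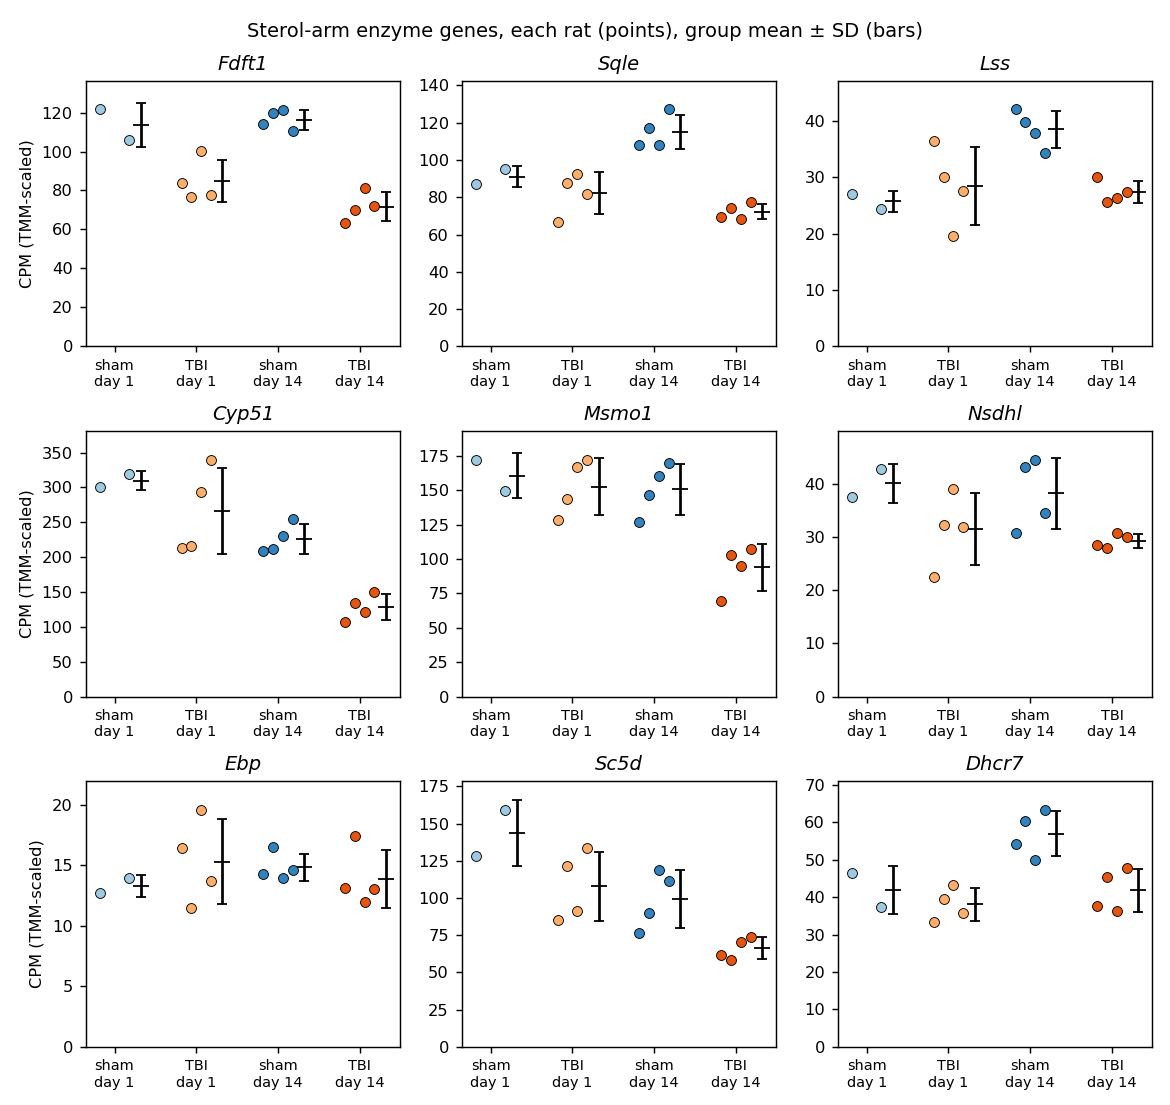
Level of each of the 9 sterol-arm genes in TMM-scaled CPM (y axis, from 0) in each rat (points) of the 4 groups (x axis), with the group mean and SD as bars. In Cyp51, Msmo1 and Sc5d the 4 TBI day 14 rats are the 4 lowest of all 14, while in Ebp they overlap with each other group.

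At 1 day after injury, Fdft1 was the enzyme called between TBI and sham. Of the 9 genes, 1 was called lower (Fdft1) and 0 higher, where 7.93% of all tested genes were called lower and 11.2% higher. Log2 fold changes ran from −0.43 to 0.20 with a median of −0.15 (−0.02 for all tested genes), and 7 of the 9 were below 0 (51.3% of all tested genes, with 48.7% above 0). With 2 sham rats against 4 TBI rats the intervals were wider than at day 14.

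Fdft1 had 122 and 106 CPM in sham day 1 and 84.1, 76.6, 100.03 and 77.9 CPM in TBI day 1. The groups did not overlap (14.1% of all tested genes were separated in this direction). By edgeR the log2 fold change was −0.43 with an SE of 0.14 (adjusted p = 0.0421), and the level fell by 25.5%. This call stood near the threshold, and 8 of 26 alternatives kept it (adjusted p = 0.0141 to 0.284). It was lost for Fdft1 without sham day 1 replicate 1 (−0.32) or replicate 2 (−0.52), and without TBI day 1 replicate 1 (−0.42), replicate 2 (−0.38) or replicate 4 (−0.39). It was also lost without any 1 of the 4 sham day 14 libraries or without TBI day 14 replicate 2 or 4, where the value was −0.42 or −0.43 and the shared estimate of spread changed. Without the 3 libraries with high choroid plexus markers it was −0.33 (adjusted p = 0.211 by edgeR).

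The 8 other genes were not called at day 1. Sc5d had 128 and 159 CPM in sham and 85.4, 121, 91.1 and 133 CPM in TBI, and its log2 fold change was −0.41 (95% interval −0.85 to 0.024, adjusted p = 0.168 by edgeR). Nsdhl had 37.6 and 42.7 CPM in sham and 22.6, 32.4, 39.1 and 31.9 CPM in TBI, a log2 fold change of −0.35 (95% interval −0.76 to 0.061, adjusted p = 0.215 by edgeR). In both genes 1 TBI rat lay within the range of the sham rats. Cyp51 had 300.1 and 319 CPM in sham and 214, 217, 293 and 340.0 CPM in TBI, and these TBI rats fell on both sides of the sham rats. Its log2 fold change was −0.22 (95% interval −0.62 to 0.18, adjusted p = 0.439 by edgeR).

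Sqle had 87.1 and 94.9 CPM in sham day 1 and 67.0, 87.8, 92.6 and 81.6 CPM in TBI day 1, and its log2 fold change was −0.15 (95% interval −0.44 to 0.15). Dhcr7 had 46.4 and 37.4 CPM in sham and 33.5, 39.7, 43.4 and 35.9 CPM in TBI, with −0.14 (95% interval −0.48 to 0.21). Msmo1 had 172 and 149 CPM in sham and 128, 143, 167 and 172 CPM in TBI, with −0.074 (95% interval −0.46 to 0.31). In each of these 3 genes the groups overlapped and the lowest of the 6 rats was TBI replicate 1. Lss and Ebp were the genes above 0. Lss had 27.0 and 24.4 CPM in sham and 36.4, 29.996, 19.6 and 27.6 CPM in TBI, and its log2 fold change was 0.14 (95% interval −0.27 to 0.55). Ebp had 12.7 and 13.9 CPM in sham and 16.4, 11.4, 19.6 and 13.7 CPM in TBI, with 0.20 (95% interval −0.25 to 0.65). The TBI rats of both genes lay on either side of the sham rats.

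Whether the effect of injury itself differed between the days was tested with 1 contrast, the day 14 effect minus the day 1 effect. None of the 9 differences was called by edgeR (0 of 9, also with limma-voom and with DESeq2), where 2.24% of all tested genes were called lower and 1.44% higher. All 9 differences were below 0 (50.5% of all tested genes were), and 4 of them had an unadjusted p-value under 0.05 (10.4% of all tested genes were below 0 with such a p-value). The largest were those of Lss (−0.63, 95% interval −1.16 to −0.11, adjusted p = 0.173), Msmo1 (−0.61, −1.11 to −0.11, adjusted p = 0.168), Cyp51 (−0.60, −1.13 to −0.072, adjusted p = 0.197) and Sqle (−0.52, −0.91 to −0.14, adjusted p = 0.12), all by edgeR. Sqle passed the threshold without TBI day 1 replicate 1 (−0.61) and Lss without TBI day 1 replicate 3 (−0.78). The effects at the 2 days were therefore not shown to differ for these genes, although more of the genes were called at day 14.

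The sham rats also differed between the 2 days, in both directions. These were different rats, and time since surgery cannot be told apart from any batch that went with the day. Lss, Dhcr7 and Sqle, with log2 fold changes of −0.58, −0.44 and −0.34 for sham day 1 against sham day 14, were lower in the sham rats killed 1 day after surgery, with no overlap, as was Ebp (−0.16, adjusted p = 0.64 by edgeR). Sc5d and Cyp51, with 0.54 and 0.45, were higher in them, again with no overlap. Of these, Lss was called lower (SE 0.19, adjusted p = 0.049 by edgeR), and 0 of the 9 genes were called higher. Of all tested genes 7.88% were called lower and 11.3% higher in this comparison. The adjusted p-values of Dhcr7, Sqle, Sc5d and Cyp51 ran from 0.0713 to 0.102 by edgeR. The call of Lss was kept by 8 of 26 alternatives (adjusted p = 0.0177 to 0.238). It was lost without any of the sham libraries, without TBI day 1 replicate 2 or 4, and without any TBI day 14 library, with values from −0.70 to −0.51 over all alternatives. Without the 3 libraries with high choroid plexus markers Lss was at −0.65 (adjusted p = 0.137 by edgeR). Non-overlap alone was common between these groups, at 20.1% of all tested genes lower and 21.3% higher.

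Between the injured groups, 3 of the 9 genes were called. Cyp51 fell by 51.8% from TBI day 1 to TBI day 14 (log2 fold change −1.05, SE 0.16, adjusted p = 0.000148 by edgeR), Msmo1 fell by 38.5% (−0.70, SE 0.15, adjusted p = 0.00197) and Sc5d fell by 38.7% (−0.71, SE 0.17, adjusted p = 0.00482). None of the 3 overlapped between the groups (19.1% of all tested genes were separated in this direction). These 3 of 9 compare with 21.9% of all tested genes called lower, and 0 of 9 were called higher (17.6% of all tested genes). Sc5d was not called without the 3 libraries with high choroid plexus markers (−0.64, adjusted p = 0.0532 by edgeR). The 6 other genes had log2 fold changes from −0.24 (Fdft1) to 0.14 (Dhcr7), each with an interval that included 0. Fdft1, Sqle, Lss and Dhcr7 were called lower in TBI day 1 when sham day 14 was the baseline, with log2 fold changes of −0.46, −0.48, −0.44 and −0.58 (adjusted p = 0.00443, 0.00294, 0.0309 and 0.00247 by edgeR). That comparison called 4 of 9 genes lower and 0 higher, with 21% and 25% of all tested genes, and shares its sham rats with the comparison at day 14. Lss kept this call in 17 of 26 alternatives (−0.58 to −0.30), and its groups overlapped. It was lost without TBI day 1 replicate 3 (−0.30) or 4 (−0.43), and without sham day 14 replicate 1 (−0.39), 2 (−0.42) or 3 (−0.45). Without the 3 libraries with high choroid plexus markers the value of Lss was −0.44 and the call was also lost (adjusted p = 0.0516 by edgeR). The other 3 did not overlap, where 17.8% of all tested genes were lower without overlap and 22.2% higher.

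**Figure D2:**
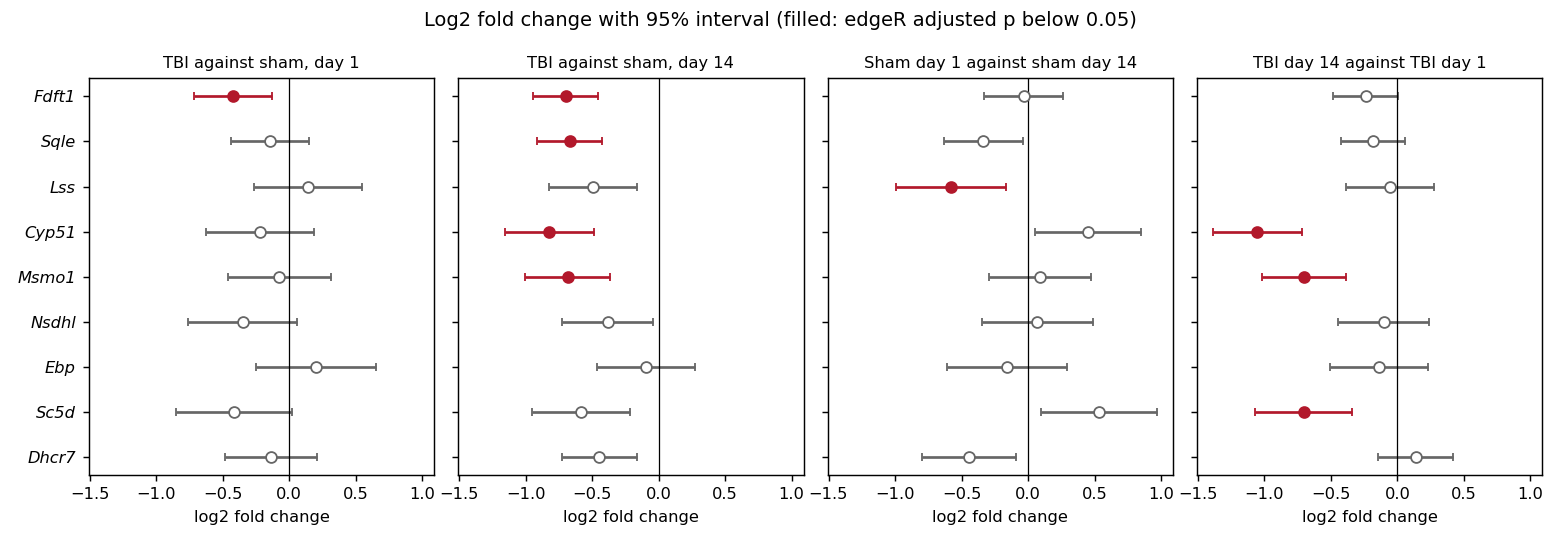
Log2 fold change (x axis) with its 95% interval for the 9 genes in pathway order (y axis) in 4 comparisons, filled where the adjusted p-value by edgeR was under 0.05. At day 14 all 9 points lie below 0, and between the injured groups the called genes are Cyp51, Msmo1 and Sc5d.

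The order of the group means differed between the genes. For Cyp51, Msmo1 and Sc5d, TBI day 14 was lowest, apart from the next group without overlap, while sham day 14, TBI day 1 and sham day 1 followed in that order and overlapped with their neighbors. The 4 TBI day 14 libraries were the 4 lowest of all 14 in these 3 genes, a pattern in 0.831% of all tested genes. For Fdft1 and Sqle, TBI day 14 was lowest and overlapped with TBI day 1. Above them the sham groups of Fdft1 overlapped (114 ± 11.2 CPM, SD, n = 2, and 116 ± 5.12 CPM, SD, n = 4), whereas Sqle in sham day 14 stood apart from all other groups at 115 ± 9.13 CPM (SD, n = 4). Lss and Dhcr7 were highest in sham day 14, Lss being lowest in sham day 1 and Dhcr7 in TBI day 1. Neighboring groups overlapped for Lss. Dhcr7 in sham day 14 (57.0 ± 6.03 CPM, SD, n = 4) did not overlap with sham day 1 (41.9 ± 6.40 CPM, SD, n = 2), its neighbor. Ebp was within the spread between rats in every neighboring pair of groups, from 13.3 ± 0.892 CPM in sham day 1 (SD, n = 2) to 15.3 ± 3.52 CPM in TBI day 1 (SD, n = 4). For Nsdhl, TBI day 14 was lowest and sham day 1 highest, and every neighboring pair overlapped.

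The 9 genes were also averaged per rat, as log2 CPM with each gene centered on its mean. Both sham day 1 rats stood at 0.18. The TBI day 1 rats ranged from −0.13 to 0.11, the sham day 14 rats from 0.099 to 0.27 and the TBI day 14 rats from −0.44 to −0.22. The 4 TBI day 14 rats were the lowest of the 14 on this average, and of the TBI day 1 rats replicate 3 reached into the range of sham day 14 while the other 3 lay below it. Over the 14 libraries Msmo1, Fdft1, Sqle and Cyp51 followed the mean of the other genes of the arm most closely (Pearson's r = 0.86, 0.84, 0.83 and 0.74). Lss and Ebp followed it least (r = 0.12 and 0.099). These correlations describe likeness over libraries that fall into 4 groups and share their scaling, and no test was made of them. Outside the arm, the gene most like its mean among 12866 was Hmgcs1 (Pearson's r = 0.84, Spearman's rho = 0.70), which makes the precursor of mevalonate. It was followed by Kcnf1, a modifier subunit of voltage-gated potassium channels (0.83 and 0.88), Fbxl7, an F-box protein (0.83 and 0.71), Acly, the lyase that supplies cytosolic acetyl-CoA (0.83 and 0.80), and Susd2 (0.83 and 0.75). Fdps and Acat2 of the mevalonate arm ranked 8 and 9 on this list.

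The rest of the pathway was read from lists written with earlier results of these data known, so their counts are a description. Of all tested genes, 0.365% were called lower and 4.07% higher at day 14. At day 1 these shares were 7.93% and 11.2%. Of 8 mevalonate-arm genes, which serve the making of farnesyl pyrophosphate and its derivatives from acetyl-CoA, 2 were called lower at day 14 and 0 higher. Their median log2 fold change was −0.49, beside −0.58 for the sterol arm, and all 8 were below 0 (55.8% of all tested genes were). Hmgcs1 fell from 279 ± 31.6 CPM in sham day 14 (SD, n = 4) to 149 ± 15.2 CPM in TBI day 14 (SD, n = 4). Its edgeR estimate was −0.91 on the log2 scale with an SE of 0.15 (adjusted p = 0.00194). Fdps, which makes farnesyl pyrophosphate, had −0.56 (adjusted p = 0.013 by edgeR). Idi1, the isomerase of the arm, had −0.68 and was not called (adjusted p = 0.0794 by edgeR). At day 1 the list median was −0.096 and edgeR called 0 of the 8. The lowest p-values were those of Hmgcs1 (−0.52, adjusted p = 0.0584 by edgeR), Idi1 (−0.47, adjusted p = 0.175) and Mvd, the decarboxylase of the arm (−0.31, adjusted p = 0.178).

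Of 3 other sterol-arm genes, 1 was called higher at day 1 (11.2% of all tested genes were) and 0 at day 14 (4.07%). The medians were 0.014 and −0.090. Lbr, a sterol reductase that also holds the nuclear lamina, was called higher at day 1 (0.69, adjusted p = 0.0447 by edgeR) and had −0.027 at day 14. Tm7sf2, the other sterol reductase acting at this step, had 0.014 at day 1 and −0.65 at day 14 (adjusted p = 0.222 by edgeR). Hsd17b7, the ketoreductase that works with Nsdhl, had −0.36 and −0.090 and was called at neither day.

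Of 10 genes for SREBP control and sterol-regulated uptake 9 were tested. At day 14, 2 were called lower and 0 higher (0.365% and 4.07% of all tested genes), with a median of −0.16. Insig1, a sterol sensor that retains SREBP in the endoplasmic reticulum, had −0.69 (adjusted p = 0.0479 by edgeR), and Srebf2 had −0.42 (adjusted p = 0.0457). At day 1 Srebf2 (−0.58, adjusted p = 0.0082 by edgeR) and Stard4, a carrier of cholesterol between membranes (−0.72, adjusted p = 0.0371), were called lower, with a list median of −0.46. Of all tested genes 7.93% were called lower at day 1. Stard4 had −0.67 at day 14 (adjusted p = 0.0675 by edgeR). Insig2, the partner of Insig1, had −0.81 at day 1 and −0.16 at day 14 and was not called. In these genes the fall of Srebf2 was thus called at both days, whereas of the 9 sterol-arm enzymes only Fdft1 was.

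The list for sterol efflux and turnover lay on the other side of 0 at day 14. Of its 10 genes 2 were called higher and 0 lower (4.07% and 0.365% of all tested genes). All 10 log2 fold changes were above 0 (44.1% of all tested genes were), and the median was 0.48. Npc2, which carries cholesterol out of lysosomes, rose from 107 ± 19.5 CPM (SD, n = 4) to 371 ± 73.7 CPM (SD, n = 4), or by 1.79 on the log2 scale (adjusted p = 0.000314 by edgeR). Abca1, the exporter that loads cholesterol onto apolipoproteins, had 1.21 (adjusted p = 0.0025). Apoe, the main apolipoprotein of the brain, had 0.81 and was not called (adjusted p = 0.0513 by edgeR), nor was the exporter Abcg1 (0.36, adjusted p = 0.181). At day 1 the median was −0.0024. Nr1h3, the oxysterol receptor LXR alpha, was then higher (1.48, adjusted p = 0.00335 by edgeR) and Cyp46a1, the neuronal enzyme that turns cholesterol into an oxysterol that can leave the brain, was lower (−0.41, adjusted p = 0.0458).

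**Figure D3:**
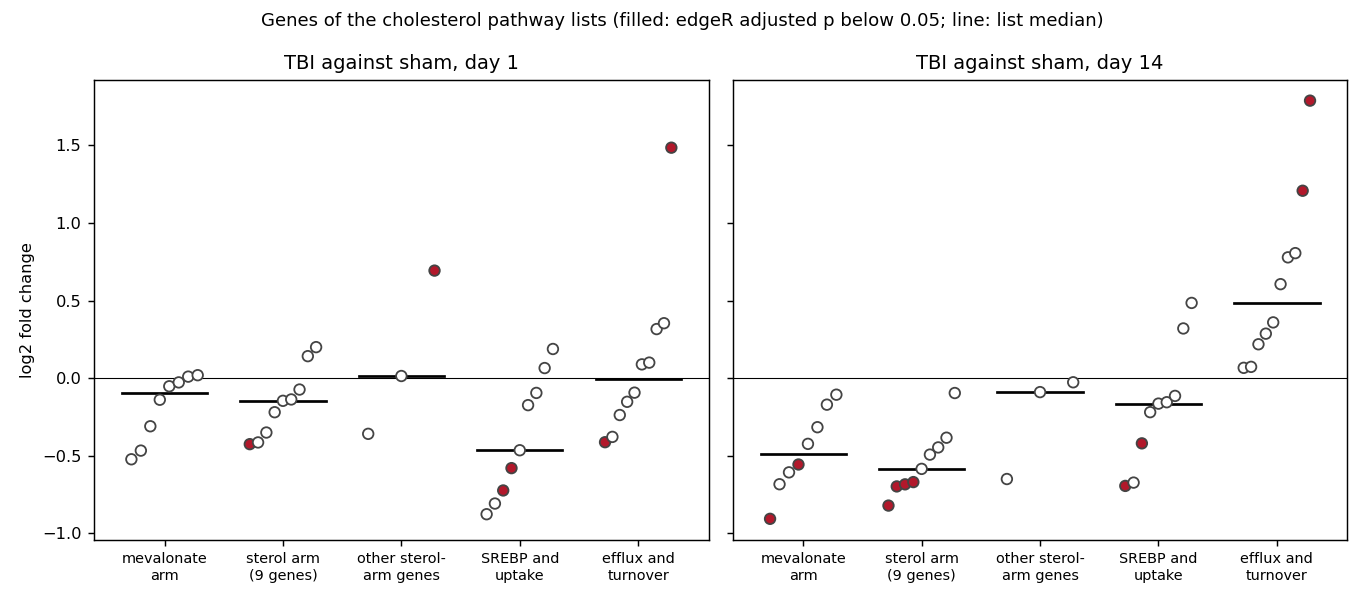
Log2 fold change of TBI against sham (y axis) at day 1 and day 14 for each tested gene of 5 lists (x axis), filled where the adjusted p-value by edgeR was under 0.05, with the list median as a line. At day 14 both synthesis arms lie below 0 and the efflux list above it.

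Markers of the cell types in the tissue were read beside the sterol arm. Of all tested genes, 4.07% were called higher and 0.365% lower at day 14, and 11.2% and 7.93% at day 1. At day 14, 6 of 7 microglia and macrophage markers were called higher in TBI (median log2 fold change 1.34), and their summed level was 314 to 393 CPM in sham and 767 to 1411 CPM in TBI. Of the 8 oligodendrocyte markers 0 were called at day 14, with a median of 0.067, and their summed level was 15377 to 24463 CPM in sham and 11060 to 19723 CPM in TBI. Of the 8 neuron markers 0 were called, with a median of −0.16 and summed levels of 8453 to 10902 CPM in sham and 7694 to 9464 CPM in TBI. Of the 7 astrocyte markers 1 was called higher and 0 lower, with a median of 0.030 and summed levels of 4278 to 5387 CPM in sham and 7524 to 11368 CPM in TBI. The called marker was Gfap, a filament protein of reactive astrocytes, at 1484 ± 219.9 CPM in sham and 6185 ± 1307 CPM in TBI (SD, n = 4 each), and Slc1a2, Aldh1l1 and Aldoc had log2 fold changes below 0. The part of these cell types in the lower sterol-arm levels was not tested. At day 1, 3 of 8 oligodendrocyte markers and 4 of 8 neuron markers were called lower in TBI (medians −0.71 and −0.75), while 1 of the 9 sterol-arm genes was. Of 7 astrocyte markers 1 was called higher and 0 lower (median −0.31), and of 7 microglia and macrophage markers 2 higher and 2 lower (0.43). Of 6 oligodendrocyte precursor markers 0 were called higher and 1 lower (−0.071), and of 5 endothelial markers 1 higher and 0 lower (0.84). On the centered log2 scale, TBI day 1 replicates 1 to 4 had oligodendrocyte markers of −0.095, −1.24, −0.40 and −1.42, neuron markers of −1.21, −0.15, −0.30 and 0.023, and sterol-arm means of −0.13, −0.029, 0.11 and 0.075. The part of these cell types in the day 1 values was not tested either.

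**Figure D4:**
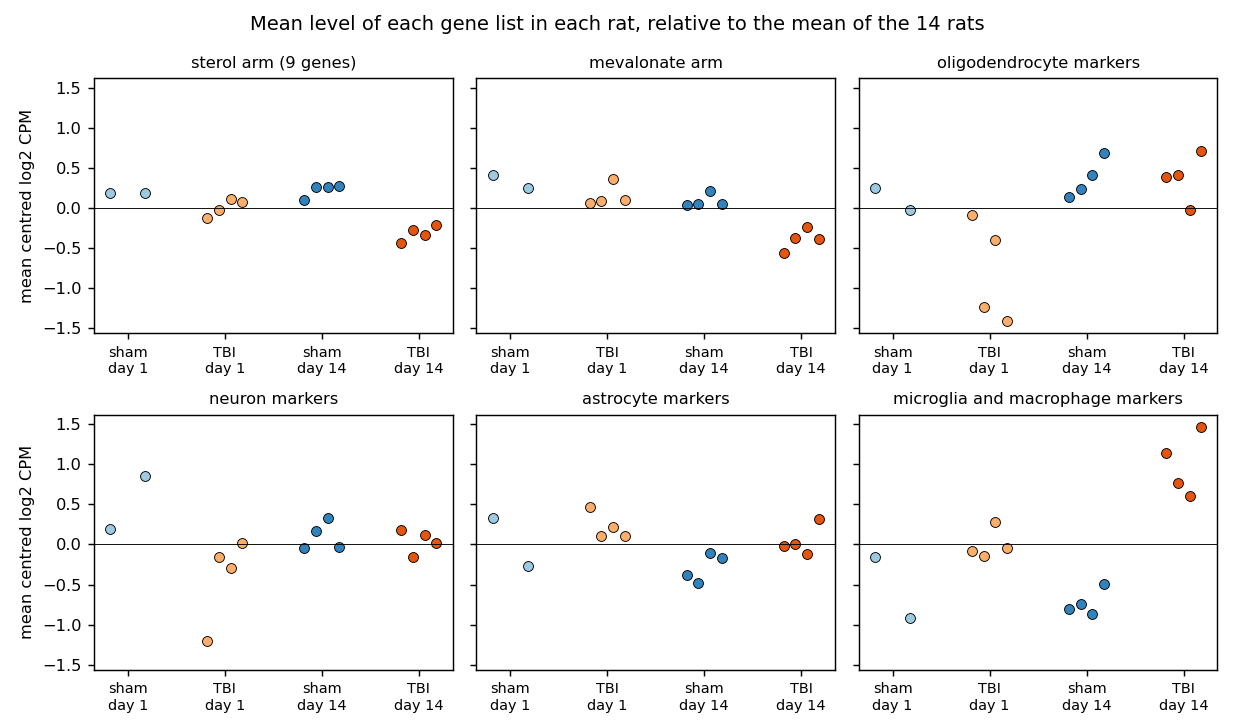
Mean log2 CPM of each gene list after centering each gene (y axis) in every rat (points) of the 4 groups (x axis). The 4 TBI day 14 rats are lowest for the sterol arm, and the 4 TBI day 1 rats are lowest for oligodendrocyte markers. For neuron markers TBI day 1 replicates 1, 2 and 3 are lowest, while replicate 4 lies among the other groups.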

How the data were processed

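Hippocampal RNA of 14 rats was analysed, grouped by the labels. Per the labels and the study's methods, the authors aligned single-end reads of stranded libraries to rn5 with STAR 2.4.2a and used featureCounts 1.5.0 with UCSC gene models. The deposited values are raw counts per gene, checked to be whole numbers without normalization. Replicates differed by more than counting noise (chi-squared per degree of freedom 12.8 to 165), so each was 1 replicate, and p-values measure the spread between these samples.

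The main test was that of edgeR 4.0.16 in R 4.3.3 (TMM, filterByExpr by group, quasi-likelihood fit with 1 mean per group, SE from the log2 fold change and F). The study itself used limma-voom and, for its expression trajectories, states a correction for batch effect without naming the batches. Here limma-voom without a batch term (limma 3.58.1) and DESeq2 1.42.0 were alternatives. Others were median-of-ratios factors, no filter, at least 10 counts in every sample, a stricter threshold (0.01 for the adjusted p), a replicate block, a fit of only those groups that are compared, a choroid plexus covariate and each sample left out. Added after seeing the data were upper-quartile factors, no factors, and a fit without 3 libraries. The tools were tested on simulated data.

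The 9 genes and all lists were chosen with earlier results of these data known. Lists leave out 3 genes that are not reported here. Named beside the 9 are 3 other sterol-arm genes, the 3 lowest p-values per list and day, and the 5 genes most like the mean. The study names no pairing of rats by replicate number, so the main fit had no replicate block. Correlations between same-numbered samples, given below, do not settle whether the numbers pair them. Each of the 9 genes had at least 198 counts in every library. Other named genes could have fewer, for example Hsd17b7 (at least 34) and Fbxl7 (1.76 to 5.13 CPM). Reads carry no molecular identifiers. H3K4me3 peaks are in rn5, for which no gene positions were used, and were not analysed here. The promoters shown and the motifs, searched in Python 3.11.15, were chosen after the values were seen.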

Additional observations from a re-analysis of the deposited data

Results flagged for a closer look

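Among the genes named above, 90 groups of 4 rats were checked for a rat far from the other 3 of its group, and 2 were found, where chance gives about 1 in 20 groups. Neither was in a gene of the sterol arm. Npc2 in TBI day 14 replicate 4 was at 480.4 CPM, against 325 to 346 in the other 3 rats. Kcnf1 in TBI day 14 replicate 4 was at 12.4 CPM, against 7.63 to 8.20.

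The effect of injury differed between the days for 1 of the named genes by edgeR's test of the difference. For Npc2 the day 14 effect minus the day 1 effect was 1.88 on the log2 scale (adjusted p = 0.0122 by edgeR). The 2 sham day 1 rats had 57.8 and 142 CPM of Npc2. This difference was not refitted without the 3 libraries with high choroid plexus markers.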

How the results depend on the processing

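At day 14 the 4 genes called lower became 7 with DESeq2, 2 without the 3 libraries with high choroid plexus markers and 3 to 6 when 1 library was left out. The 1 gene called lower at day 1 became 0 with at least 10 counts in every sample, with only the groups compared, at an adjusted p under 0.01, with the choroid plexus covariate, with upper-quartile or no factors and without the 3 libraries, and 0 to 1 when 1 library was left out. In fits without a sham day 1 library the remaining one was assumed to vary like the other groups. The 0 genes called for the difference between the days became 1 without factors and 0 to 1 when 1 library was left out. For sham day 1 against sham day 14, the 1 gene lower became 0 with limma-voom, without a filter, at 0.01, with the covariate and without the 3 libraries, 2 with DESeq2 or no factors, 3 with upper-quartile factors, and 0 to 3 when 1 library was left out. The 0 genes higher became 1 with only the groups compared and 0 to 1 when 1 library was left out. The other counts stayed within 1.5 times. The causes were not tested.

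With the replicate block 2 genes were lower at day 1 (Sc5d added, −0.56), 5 at day 14 (Sc5d added, −0.57), and 2 higher in sham day 1. Same-numbered samples correlated from −0.35 to 0.24 over 18 pairs, 5 of them above 0.1, and 2 of 4 sham day 14 rats correlated best with their own number. Without factors the median of all tested genes moved to 0.15 at day 1.

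Log2 fold changes that changed sign belonged to values not called in either fit. At day 1 without factors Sqle, Msmo1 and Dhcr7 were 0.020, 0.087 and 0.025. With the covariate Msmo1 was 0.0098, and without the 3 libraries Msmo1 and Dhcr7 were 0.019 and 0.013. The difference between days for Nsdhl was 0.0038 with limma-voom, 0.10 with the replicate block, 0.024 with the covariate and 0.091 without the 3 libraries, where that of Sc5d was 0.052. Lss was 0.042 between the injured groups and Msmo1 −0.00897 between the sham groups without the 3 libraries, and Fdft1 0.018 between the sham groups with the replicate block. Msmo1 in TBI day 1 against sham day 14 was −0.000604 with DESeq2 and −0.000574 with median-of-ratios factors. When 1 library was left out, values that crossed 0 at day 1 were those of Msmo1 (−0.17 to 0.032) and Dhcr7 (−0.29 to 0.025), and for the difference between days that of Nsdhl (−0.16 to 0.086). Between the injured groups they were Lss (−0.20 to 0.087), Nsdhl (−0.23 to 0.017) and Ebp (−0.27 to 0.0025), and between the sham groups Fdft1 (−0.14 to 0.063), Msmo1 (−0.015 to 0.19) and Nsdhl (−0.026 to 0.16). In TBI day 1 against sham day 14 they were Msmo1 (−0.057 to 0.093) and Ebp (−0.098 to 0.16).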
